A study of Mus musculus with 54 samples.

Results

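The libraries described here are the 12 bulk RNA-seq libraries of subdural CNS-associated macrophages (sdCAMs) taken 12 h after lipopolysaccharide (LPS, a bacterial endotoxin) from wild-type (WT) and reporter mice, out of 54 libraries in the series. They were grouped by a value measured in the same libraries, the share of all counts that fell on Saa3, with 10% or more called Saa3-high and under 5% called Saa3-low. The rule placed 7 libraries in the high and 5 in the low group and left 0 between the limits. It ignored the treatment and tdTomato labels. Because the groups were made from a readout, the differences between them are given as a description with no test, and tests are given only for libraries outside the rule.

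sdCAMs are macrophages at the borders of the brain below the dura, in the leptomeninges and around vessels, and MG are the microglia of the parenchyma. All cells were sorted from brains without choroid plexus. The 6 WT libraries came from 3 mice that had received vehicle (CTL) and 3 that had received BLZ945, a drug that blocks the CSF1 receptor and thereby depletes microglia and brain macrophages, and LPS followed 8 weeks after the end of treatment. The 6 reporter libraries came from 3 Ccr2CreERT2 R26tdT mice, all given BLZ945 and tamoxifen and 8 weeks later LPS, with the sdCAMs of each mouse sorted into tdT+ and tdT- cells. In this model tamoxifen activates a recombinase in cells that express Ccr2 at that time, so the tdT label reports past Ccr2 expression and an unlabelled cell may still descend from an unlabelled monocyte. The members thus came from 9 mice, and each reporter mouse gave 2 of them. Libraries outside the rule serve as reference, namely 6 sdCAM libraries after LPS (3 CTL and 3 BLZ945) from Ccr2-/- mice, resting sdCAM libraries and MG. Resting mice received PBS in place of LPS. The 3 WT and 3 Ccr2-/- resting libraries came from mice with no earlier treatment (called untreated), so they had not had the vehicle either, whereas the 6 resting reporter libraries came from mice given BLZ945, so the resting cells of the WT table were never depleted and those of the reporter table were repopulated. In bulk libraries, fewer cells of a type and less RNA per cell cannot be told apart.

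Saa3 encodes serum amyloid A3, an acute phase protein that macrophages and epithelia make after endotoxin or inflammatory cytokines. LPS is sensed by Tlr4 with the help of Ly96 and Cd14, and signalling through the adaptors Myd88 and Ticam1 leads to the NF-kappaB genes, chemokines and acute phase genes and to an interferon programme. Many of these secreted products, the metallothioneins, and the subunits of the ribosome and the respiratory chain are small proteins made from short mRNAs.

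In the WT mice given vehicle, Saa3 took 35.76%, 23.11% and 22.98% of the counts of mice 1, 4 and 6. In those given BLZ945, it took 21.01% in mouse 12 but 2.390% in mouse 8 and 1.788% in mouse 11. The tdT- libraries of reporter mice 1, 5 and 7 held 14.47%, 28.33% and 17.79%, and the tdT+ libraries of the same mice 2.144%, 0.6799% and 2.736%. Hence the high group is made of all WT CTL libraries, WT BLZ945 mouse 12 and the 3 tdT- libraries, and the low group of WT BLZ945 mice 8 and 11 and the 3 tdT+ libraries. The members nearest to the limits were the tdT- library of mouse 1 at 14.47% (Wilson 95% interval 14.44 to 14.50) and the tdT+ library of mouse 7 at 2.736% (2.717 to 2.755), intervals that cover counting error only. Outside the rule, all 6 Ccr2-/- sdCAM libraries after LPS fell between 5.881% and 7.552%, so each lay above every Saa3-low and under every Saa3-high library. In resting sdCAMs the share was at most 0.1667%. In MG after LPS it was at most 0.611%, and the MG of the WT mice with high sdCAM libraries held 0.1940%, 0.01121%, 0.04221% and 0.05207% (mice 1, 4, 6 and 12) against 0.05294% and 0.07933% in mice 8 and 11. The MG of the same mice therefore did not divide in the way that their sdCAMs did.

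**Figure D1:**
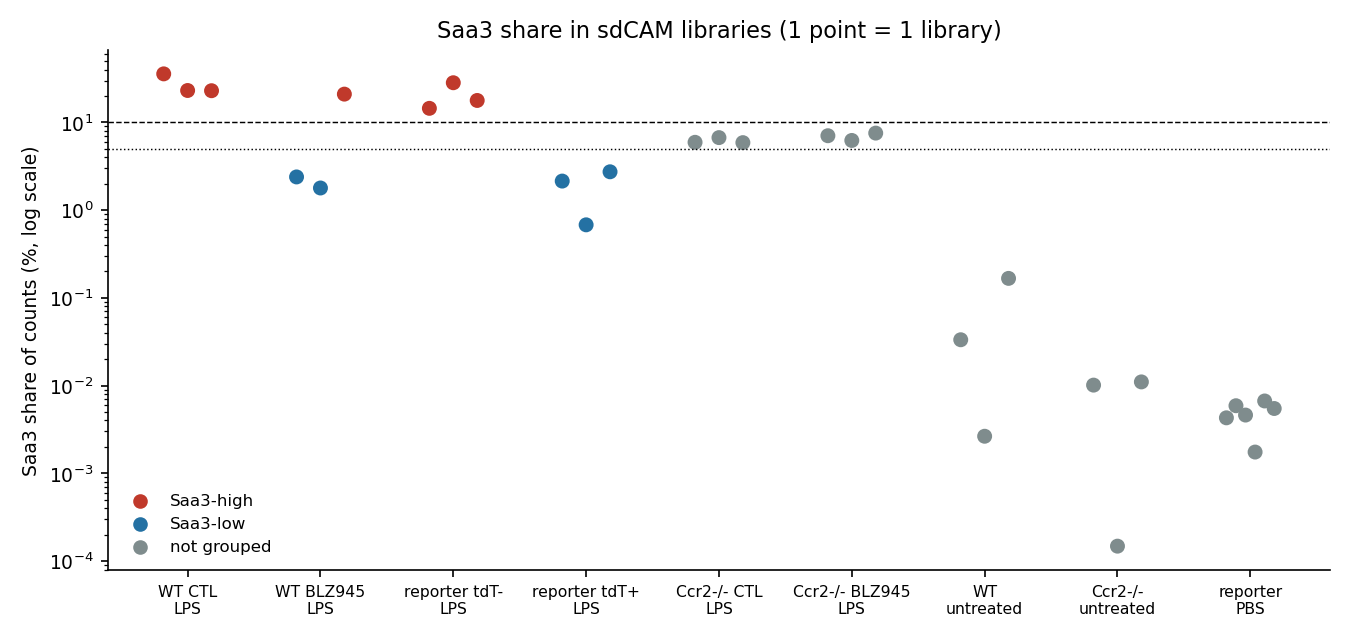
Saa3 share of counts (%, log scale) in each sdCAM library, by genotype, treatment and sorted population, with dashed and dotted lines at the limits of 10% and 5%. The 7 Saa3-high libraries lie between 14.47% and 35.76%, the 5 Saa3-low libraries between 0.6799% and 2.736%, and the 6 Ccr2-/- libraries after LPS between the limits.

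Other properties of the libraries moved with the groups. High libraries had 2386672 to 8751293 counts and low libraries 1705930 to 5467630. After thinning all libraries to 1675424 counts without Saa3, 11929 to 13308 genes were detected in high and 12833 to 13956 in low libraries, ranges that overlap. The labels of the 4 WT high libraries carry the remark IEG_correction, which they do not explain, and those of both WT low libraries do not, so within the WT table the Saa3 group and this mark cannot be told apart. No reporter library carries the mark, and there the Saa3 group and the tdT label as given cannot be told apart. Xist and the Y-linked Ddx3y showed that 2 reporter libraries differed in sex from the MG of the mouse they are named for: the tdT- library of mouse 1 held 377.9 CPM of Xist and no Ddx3y whereas the MG of that mouse held 58.73 CPM of Ddx3y, and the tdT+ library of mouse 7 held 131.3 CPM of Ddx3y and no Xist whereas its MG held 976.1 CPM of Xist. Each thus matched in sex the MG of the other's mouse, and the index number in each column name was that of the other library. An exchange of these 2 libraries would leave each in its Saa3 group, since the rule reads no label, but would change the mouse and the tdT label that it carries. The Saa3 group would then no longer follow the tdT label. Both sdCAM libraries of mouse 7 would be high and both of mouse 1 low. Whether the 2 libraries were exchanged was not tested, and they are used as labelled.

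With Saa3 left out and the table as a block, 9801 genes averaged at least 5 CPM (counts scaled by the library total) over the 12 libraries. A gene was counted as separating where, in both tables, every high library lay on the same side of every low library and the log2 difference exceeded 1 in size. By this description 970 genes were higher (9.90% of those tested) and 390 lower (3.98%) in the Saa3-high libraries. Among genes averaging 20 CPM or more, the greatest excess was seen for Crip1 (a small LIM domain protein, log2 difference 6.55), Ccl17 (a chemokine that binds Ccr4, 6.26), Wfdc17 (a secreted protein with a WAP domain, 5.99), Polr2i (a subunit of RNA polymerase II, 5.98), Mrps18c (a mitochondrial ribosomal protein, 5.76), Atp5mj (a small subunit of the ATP synthase, 5.73), Elob (an elongin subunit, 5.61), S100a8 (a calcium-binding antimicrobial protein, 5.61), S100a6 (5.59), Saa2 (5.58) and Saa1 (5.52). Fcor also met the rule for the 12 largest, but 4 of the 5 low libraries were at 0 and the high libraries ranged from 2.95 to 244.2 CPM (median 19.71), so that its difference is not ranked. The largest deficits were smaller, with -2.55 for Daglb, -2.55 for Usp33, -2.50 for Pkd1, -2.48 for Med12 and -2.47 for Rnf139. The split of the counts depends on the scaling. TMM, which sets the middle of the genes of each library equal, gave scaling factors of 0.55 to 1.00 in high and 1.52 to 1.68 in low libraries, and the median difference over all genes was -0.07. On plain CPM this median was -1.17, and 471 genes were higher and 2862 lower. Differences below are therefore relative to the middle of all genes. The differences of the WT and of the reporter libraries, which share no mouse, had a Pearson r of 0.72 across 9138 genes, which are not independent replicates.

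The direction of the difference went with the length of the encoded protein. Lengths were found for 9385 of the 9801 genes (95.8%). Of 690 genes for proteins of under 150 residues, 357 were higher and 1 lower in Saa3-high libraries, with a median log2 difference of 3.02. Of 5461 genes for proteins of 150 to under 600 residues, 437 were higher and 185 lower (median -0.02), and of 3234 genes for proteins of 600 residues or more, 85 were higher and 199 lower (median -0.39). On plain CPM the medians of the 3 classes were 1.89, -1.12 and -1.49, in the same order. In 10 length classes of equal size, the median difference went from 2.45 in the shortest (25 to 171 residues) to 0.64 in the next and -0.42 in the longest. Spearman's rho between difference and length was -0.41 across genes. In comparisons that the rule did not use, the LPS response of Ccr2-/- sdCAMs had a rho of -0.12 with length and that of WT MG -0.02.

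**Figure D2:**
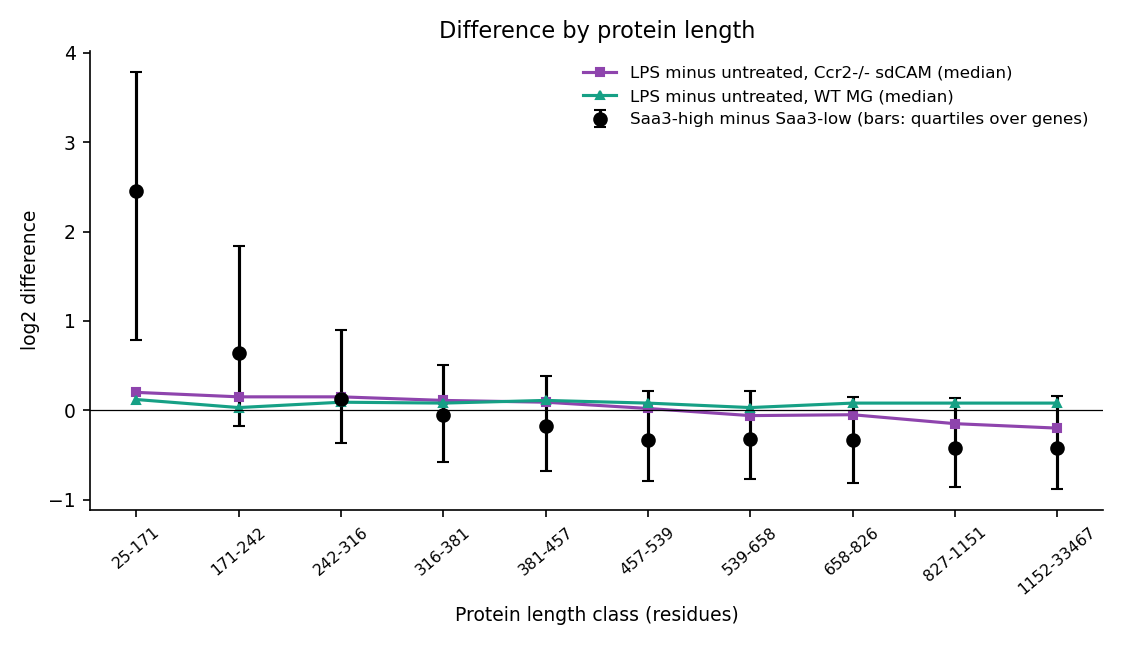
Log2 difference (y axis) of genes in 10 protein length classes of equal size (x axis, residues), with black points and bars for the median and quartiles of Saa3-high minus Saa3-low and lines for the median LPS response of Ccr2-/- sdCAMs and WT MG. The black points run from 2.45 in the shortest class to -0.42 in the longest, and the lines stay between -0.20 and 0.20.

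Per library, genes for proteins of under 150 residues took 32.7% to 53.7% of the coding counts (Saa3 left out) in Saa3-high and 6.29% to 9.64% in Saa3-low libraries. The high WT libraries held 52.6%, 46.6%, 44.8% and 53.7% and the high reporter libraries 36.2%, 32.8% and 32.7%. By this share the 6 Ccr2-/- libraries after LPS, at 10.6% to 13.7%, were near the low group, though above each of its libraries. Genes for proteins of 600 residues or more took 7.74% to 24.4% in high and 29.9% to 40.4% in low libraries, and the 50 most abundant genes took 30.6% to 45.6% against 18.1% to 22.1%. Rows that collect reads of ribosomal RNA (Rn18s, Rn45s, Mir6236 and Lars2, which contains a stretch like it) took 0.279% to 1.72% of counts in high and 1.83% to 9.19% in low libraries. In the Ccr2-/- libraries after LPS they took 0.046% to 0.139%, under both groups. The part of library preparation in these differences was not tested.

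Among resting WT sdCAMs, which had not received LPS, 2 of the 3 libraries carry the same mark as the WT Saa3-high libraries. Proteins of under 150 residues took 25.1% and 16.1% of coding counts in the marked libraries of mice 9 and 14 and 6.40% in the unmarked library of mouse 15. Saa3 itself took 0.03329% and 0.002644% in the marked and 0.1667% in the unmarked library. Relative to all genes, the genes that were higher in Saa3-high libraries had a median log2 difference of 2.01 between marked and unmarked resting libraries, whereas the genes that LPS raised in Ccr2-/- sdCAMs had one of 0.17. Atox1, a copper chaperone, had 3470 and 1963 CPM with the mark and 110.6 CPM without it. Elob had 1451 and 742.8 against 67.5 CPM, and Crip1 2032 and 1666 against 35.83 CPM. With 2 libraries against 1 there was no test. In the 6 resting reporter and 3 resting Ccr2-/- libraries, short-protein genes took 8.98% to 12.8%.

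**Figure D3:**
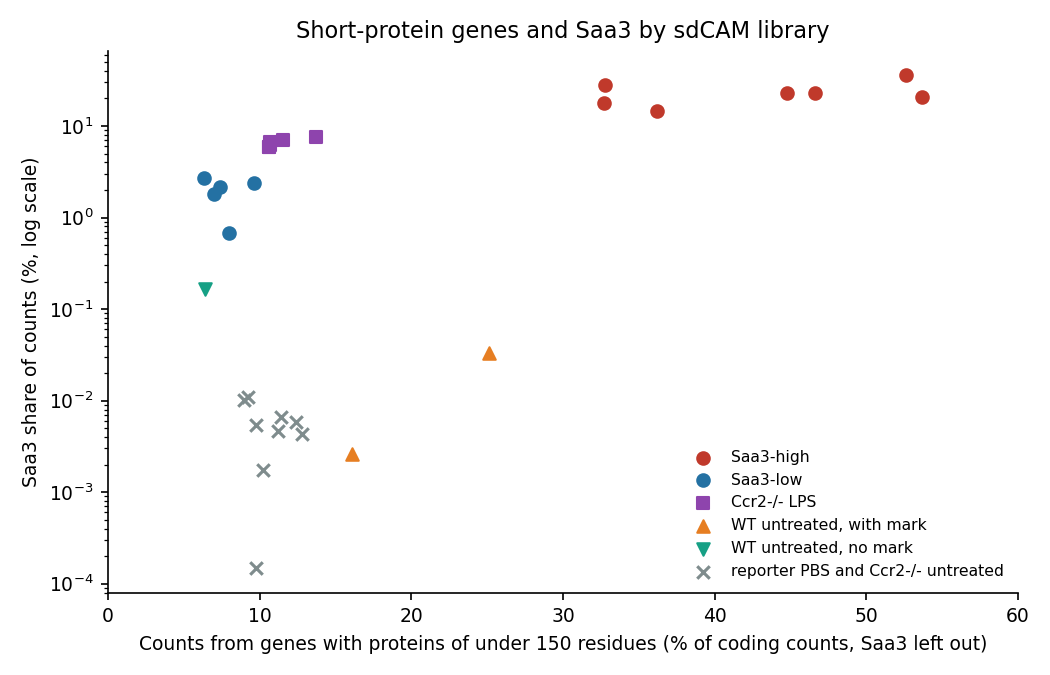
Share of coding counts from genes with proteins of under 150 residues (x axis, %, Saa3 left out) against the Saa3 share of counts (y axis, %, log scale), 1 point per sdCAM library. Saa3-high libraries lie at 32.7% to 53.7%, Saa3-low and Ccr2-/- libraries at 6.29% to 13.7%, and the 2 marked resting WT libraries at 16.1% and 25.1%.

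Housekeeping complexes of small subunits were among the groups that separated most. Of 80 cytosolic ribosomal protein genes tested, 67 were higher (83.8%) and 0 lower in Saa3-high libraries, beside 9.90% and 3.98% over all genes. Their median difference was 3.17, beside -0.07 for all genes. Their summed share of counts was 2.62% to 4.93% against 0.824% to 1.02%. Rps27l was at 1249 to 3991 CPM in high and 18.26 to 73.08 CPM in low libraries (TMM-scaled, as are all member levels below), and LPS did not change it in Ccr2-/- sdCAMs at the threshold (log2 fold change 0.45). Of 89 genes for respiratory chain and ATP synthase subunits, 63 were higher and 0 lower (median 4.06), and their summed share was 3.08% to 6.24% against 0.622% to 0.928%. For Uqcrq, a subunit of complex III, the high libraries held 3540, 2350, 1796 and 4095 CPM in WT and 3658, 1162 and 2316 CPM in reporter mice, and the low libraries 103.0 and 41.97 CPM in WT and 85.11, 67.52 and 42.96 CPM in reporter mice. Of 75 mitochondrial ribosomal protein genes, 32 were higher and 0 lower (median 2.46). A list of 17 small proteins of the ubiquitin, elongin and proteasome systems also held Atox1, a copper chaperone outside these systems. Of this list, 15 were higher and 0 lower (median 3.96). Among them were Atox1 (1791 to 6305 against 57.35 to 189.1 CPM), the ubiquitin-like Ubl5 (963.9 to 3299 against 20.63 to 104.1 CPM) and Sem1, a small proteasome subunit (2661 to 6799 against 67.22 to 236.6 CPM). In Ccr2-/- sdCAMs LPS raised 2 of 80 cytosolic ribosomal, 4 of 89 respiratory chain, 7 of 75 mitochondrial ribosomal and 1 of 17 genes of the ubiquitin list, where 10.9% of all genes tested were raised and 10.6% lowered. In WT MG, LPS raised 36 of 80 cytosolic ribosomal, 0 of 88 respiratory chain, 2 of 75 mitochondrial ribosomal and 2 of 17 genes of the ubiquitin list, where 9.08% of all genes were raised. Sequences of such genes resemble those of processed pseudogenes, so single values are uncertain to that extent.

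The acute phase and antimicrobial list held 25 genes in the tables, of which 17 passed the filter. Of these, 10 were higher (58.8%) and 0 lower in Saa3-high libraries (median 4.08), beside 9.90% and 3.98% over all genes. The median member had 122 residues, and of all genes for proteins of under 150 residues 51.7% were higher. Relative to genes of like protein length, 10 were higher and 0 lower by the same rule. For Saa1, a secreted acute phase apolipoprotein, the high libraries held 1207, 430.7, 164.4 and 286.6 CPM in WT and 83.29, 669.0 and 167.1 CPM in reporter mice, and the low libraries 8.422 and 2.845 CPM in WT and 13.70, 5.211 and 14.63 CPM in reporter mice. Every high library was above every low one. Saa2 gave 83.47 to 368.7 against 0.0 to 12.54 CPM. As the Saa genes are related in sequence, reads may be shared between Saa1, Saa2 and Saa3, to an extent that was not tested. Wfdc17 was at 9965 to 22520 CPM in high and 43.27 to 477.6 CPM in low libraries. S100a8 was at 302.9 to 2755 against 6.684 to 37.82 CPM, and the interferon-inducible membrane protein Ifitm3, which restricts virus entry, at 8817 to 55560 against 275.3 to 1701 CPM. Ifitm1 (log2 difference 4.08), Ifitm2 (4.2), S100a11 (4.06) and Wfdc18 (4.32 to 37.43 against 0.0 to 1.858 CPM) were also higher. Lcn2, which binds bacterial siderophores, separated by less (5023 to 25170 against 668.6 to 3335 CPM, log2 difference 2.41).

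The remaining 7 members of that list did not separate. Ifitm6 (0.0 to 273.4 against 2.832 to 24.78 CPM) and Wfdc21 (0.0 to 117.2 against 0.0 to 4.565 CPM) had overlapping libraries, as had Cp, the copper-carrying ferroxidase ceruloplasmin, with a log2 difference of 1.14. Hp, which encodes haptoglobin, the carrier of free haemoglobin, was at 57.31, 37.37, 39.69 and 65.94 CPM in WT high and 56.24 and 60.82 CPM in WT low libraries, and at 157.9, 274.6 and 184.5 CPM in tdT- and 208.0, 38.29 and 178.8 CPM in tdT+ libraries. It was listed at 0 CPM in the 3 untreated Ccr2-/- libraries and at 143.7 to 526.4 CPM in the 6 after LPS. Il1rn, the antagonist of the interleukin 1 receptor, had 194.7 to 901.7 CPM in high and 270.2 to 708.5 CPM in low libraries (log2 difference 0.30), and in Ccr2-/- sdCAMs LPS raised it by 9.03 (SE 0.238, edgeR adjusted p = 3.89e-10). The metalloreductase Steap4 had a difference of 0.06 and an LPS response of 9.34 in Ccr2-/- sdCAMs (SE 0.387, edgeR adjusted p = 1.08e-08). Lyz2, a lysozyme, had a difference of 0.57. For comparison, the LPS response of Saa3 in the same libraries was 9.92 (SE 1.081, edgeR adjusted p = 2.16e-05) and that of the separating Lcn2 9.11 (SE 0.926, edgeR adjusted p = 1.21e-05).

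**Figure D4:**
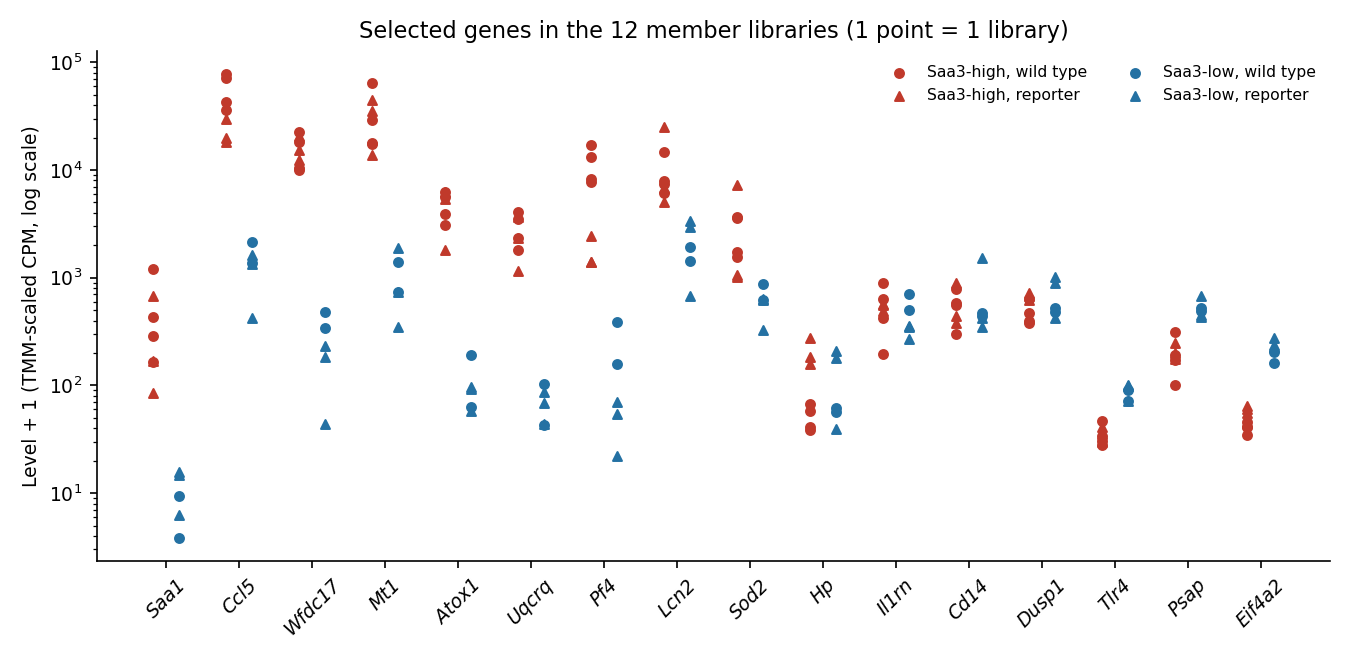
Level + 1 (TMM-scaled CPM, log scale) of 16 genes, picked for display from those named in the text, in each of the 12 libraries, with colours for the Saa3 group and shapes for the table. High and low libraries do not overlap within a table from Saa1 to Sod2, overlap for Hp, Il1rn, Cd14 and Dusp1, and are in the reverse order for Tlr4, Psap and Eif4a2.

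Of 12 CC chemokines tested, 4 were higher (33.3%), 0 lower and 8 neither (median 2.76), beside 9.90% higher and 3.98% lower over all genes. Ccl5, which draws T cells and monocytes, was at 18270 to 78080 CPM in high and 422.5 to 2151 CPM in low libraries, and LPS raised it by 9.53 in Ccr2-/- sdCAMs (SE 0.375, edgeR adjusted p = 8.38e-09). For Ccl17, levels in high libraries were 10530, 3662 and 11060 CPM in reporter mice but 141.5 to 785.4 CPM in WT mice, against 0.0 to 68.27 CPM in all low libraries. Ccl12 was the fourth. Ccl8 was at 383.3 to 2857 against 10.65 to 157.9 CPM, whereas in Ccr2-/- sdCAMs LPS lowered it (-1.13, SE 0.249, edgeR adjusted p = 0.00446). The same held for Pf4, a CXC chemokine and sdCAM marker (1392 to 17240 against 21.18 to 386.3 CPM, LPS response -1.20, SE 0.230, edgeR adjusted p = 0.00179). Of 9 CXC chemokines, 4 were higher (44.4%), 0 lower and 5 neither (median 2.65). Besides Pf4, those higher were Cxcl2, which attracts neutrophils (log2 difference 3.19), the interferon-induced Cxcl9 (3.17) and the B cell attractant Cxcl13 (2.43). Relative to genes of like protein length, 4 CC but only 1 CXC chemokine remained higher by the same rule. On that scale the difference of Cxcl13 was -0.02, while those of Ccl5, Wfdc17, Saa1 and Pf4 were 2.20, 3.54, 3.07 and 2.85. Of 5 genes in the metallothionein list, the small metal-binding proteins Mt1 (13810 to 64420 against 345.2 to 1872 CPM), Mt2 and Mt3 were higher, whereas the zinc importer Slc39a14 had a difference of -0.62. Among 13 genes for selenoproteins and iron handling, 6 were higher (46.2%) and 2 lower (15.4%), and relative to like length 4 were higher and 1 lower. Fth1, the ferritin heavy chain, held 15980 to 127900 CPM in high and 4545 to 11100 CPM in low libraries.

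Of 21 genes of LPS sensing and signalling, 1 was higher (4.76%) and 3 lower (14.3%), beside 9.90% and 3.98% over all genes, with a median of -0.39. Relative to genes of like protein length, 1 was higher and 1 lower. The one higher was Ly96, the small co-receptor of Tlr4 (47.48 to 978.4 against 6.501 to 29.34 CPM). Tlr4 itself was lower, at 32.66, 46.21, 29.70 and 26.73 CPM in WT high and 34.18, 40.15 and 28.73 CPM in tdT- libraries, against 89.93 and 71.13 CPM in WT low and 71.41, 98.21 and 99.38 CPM in tdT+ libraries. Tlr2, a receptor of bacterial lipoproteins, and Tlr9, a receptor of bacterial DNA, were lower by log2 differences of -1.22 and -2.24, and Cd14 had one of -0.08. Of 20 NF-kappaB and feedback genes, only Nfkbia, which encodes the inhibitor of NF-kappaB, was higher (1026 to 3093 against 469.5 to 747.7 CPM), and the list's median was -0.17. Dusp1, a phosphatase that limits MAP kinase signalling, had 379.6 to 717.9 CPM in high and 417.8 to 1021 CPM in low libraries. In Ccr2-/- sdCAMs, LPS raised 15 of 20 genes of that list. Of 17 cytokine genes, 1 was higher (Ebi3, a subunit of interleukins 27 and 35, log2 difference 1.54) and 0 were lower (median -0.33), and LPS raised 10 of 19 in Ccr2-/- sdCAMs. Of 18 glycolysis and itaconate genes, 1 was higher, Sod2, the mitochondrial superoxide dismutase (1006 to 7200 against 326.5 to 880.8 CPM), and 3 were lower, the glycolytic enzymes Ldha, Pkm (67.56 to 126.1 against 183.6 to 239.9 CPM) and Pgk1 (5.969 to 26.58 against 24.58 to 74.34 CPM, separate within each table). LPS raised 16 of 21 of these genes in Ccr2-/- sdCAMs, Pkm and Pgk1 included.

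Of 37 interferon-stimulated genes, 4 were higher (10.8%) and 1 lower (2.7%), with a median of 0.16. These shares were near the 9.90% and 3.98% over all genes. Isg15, a ubiquitin-like modifier, had 130.0 to 925.0 CPM in high and 19.50 to 51.08 CPM in low libraries, Bst2, which tethers budding virus, a log2 difference of 3.34, and Xaf1 and the nucleic acid sensor Zbp1 differences of 2.49 and 1.92. LPS raised 25 of the 37 in Ccr2-/- sdCAMs and 21 of 37 in WT MG. Of 18 MHC class I and antigen processing genes, 5 were higher (27.8%) and 0 lower. Among them were the proteasome activator subunits Psme2 (3.38) and Psme1 (2.54) and the immunoproteasome subunit Psmb9 (2.27). B2m, the light chain of class I, overlapped (3529 to 32230 against 2722 to 4121 CPM). Of 7 MHC class II genes, 0 were called in either direction (median 0.20). Heat shock chaperones (1 of 10 higher, 0 lower, the small Hspe1), cell cycle genes (0 of 8) and immediate early genes (0 of 14, median 0.25) were near or under the share of all genes. Summed over the immediate early list, levels on plain CPM were 870.8 to 2119 in high and 2378 to 4171 in low libraries, so for that list the order depends on the scaling. Of 25 lysosomal genes, 1 was higher (Cd63, 2.72) and 1 lower (Psap, the saposin precursor, at 100.5 to 314.7 against 429.3 to 679.8 CPM).

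Of the 390 genes that were lower in Saa3-high libraries, 199 encode proteins of 600 residues or more, against 85 of the 970 that were higher. Among all 3234 such genes tested, 6.15% were thus lower and 2.63% higher, beside 3.98% and 9.90% over all genes. Eif4a2, an RNA helicase of translation initiation, had 40.02, 45.23, 33.48 and 39.80 CPM in WT high and 54.53, 63.70 and 59.73 CPM in tdT- libraries, against 161.7 and 201.3 CPM in WT low and 236.7, 224.1 and 273.8 CPM in tdT+ libraries. Kpnb1, a nuclear import receptor, had 12.78 to 31.20 against 55.28 to 128.1 CPM. Med12 (a Mediator subunit of 2190 residues) had 1.620 to 15.37 against 35.92 to 62.46 CPM, and Pkd1 (polycystin 1, with 4293 residues) 1.967 to 13.07 against 30.98 to 57.06 CPM. Pom121, a nuclear pore protein, Rnf139 and Rffl, both ubiquitin ligases, the deubiquitinase Usp33, the lipase Daglb, Gpr155, Tm9sf1 and the inhibitory receptor Lilrb4a complete the 12 with the largest deficits, between -1.98 and -2.55. On plain CPM their deficits were larger, from -3.05 for Tm9sf1 to -3.69 for Daglb.

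The transcripts that mark sdCAMs varied between the libraries. Mrc1, the mannose receptor, was at 230.5 to 723.7 CPM (plain CPM in this paragraph) in high and 377.9 to 2339 CPM in low libraries, and F13a1 at 470.3 to 1555 against 509.2 to 3222 CPM. In the MG after LPS of WT and reporter mice Mrc1 was at most 8.332 and F13a1 at most 18.8 CPM. Other markers were lower or less specific. Lyve1 was at 9.097 CPM in WT mouse 1 and up to 450.9 CPM elsewhere. Folr2 was at 0.4784 CPM in the tdT- library of mouse 1 and 0.9207 CPM in the tdT+ library of mouse 5, near the highest MG value of 0.3735 CPM. Stab1 was at 200.3 to 447.3 CPM in high libraries, under its level in MG after LPS (507.2 to 1276 CPM), and at 595.7 to 1525 CPM in low libraries. These levels depend on the scaling, as on plain CPM the median gene was itself lower in high libraries (log2 difference -1.17). With TMM no sdCAM marker, Stab1 included, was called lower. Of 16 sdCAM markers, 2 (12.5%) were higher, Apoe, a lipid carrier, and Pf4, and 0 lower, beside 9.90% and 3.98% over all genes. Their summed levels over the whole list were 14420 to 30710 CPM in high and 5380 to 23750 CPM in low libraries. Of 11 microglia markers, 0 were called in either direction (median -1.44), and their summed level was 1888 to 28830 CPM in high and 2288 to 28070 CPM in low libraries. That sum includes Cst3, an abundant cystatin that other macrophages also make (TMM-scaled level 1763 to 49560 CPM in high libraries). On plain CPM, where the median gene was lower in high libraries by a log2 difference of -1.17, P2ry12 was higher in every low library and Sall1 in both WT low libraries. P2ry12, a purinergic receptor of microglia, was at 288.4 and 231.6 CPM in the WT low and 46.5 to 90.86 CPM in the WT high libraries, and at 126.5, 1098 and 119.0 CPM in tdT+ against 39.95, 63.13 and 27.65 CPM in tdT- libraries. Sall1, a transcription factor of microglia, was at 100.2 and 127.1 CPM in WT low and 7.629 to 36.97 CPM in WT high libraries. The median level of the microglia markers relative to the MG of the same mouse, also on plain CPM, was 26.5% and 26.1% in WT low against 7.47% to 11.4% in WT high libraries, and 4.19%, 81.3% and 8.90% in tdT+ against 1.66%, 4.68% and 4.69% in tdT- libraries. This ratio depends on the scaling in the same way and was not computed with TMM. The TMM factors were 1.55 and 1.68 in WT low and 0.55 to 0.73 in WT high libraries. The low end of the sdCAM range and the high end of the microglia range in the low group were both set by the tdT+ library of mouse 5, in which Tmem119 was at 902.7 CPM, against 112.7 to 605.9 CPM of Tmem119 in the other low libraries. Without this library 1091 genes were higher and 511 lower. Of 7 monocyte markers 0 were higher and 1, Fn1 (fibronectin), was lower, with summed levels of 290.1 to 590.7 and 342.1 to 891.7 CPM. Ccr2 was at 0.0 to 41.86 and 2.984 to 25.79 CPM and Ly6c2 at no more than 7.44 CPM. Of 5 neutrophil markers 1, S100a8, was higher, with summed levels of 294.3 to 1882 and 343.3 to 851.3 CPM, whereas Ly6g was at 0 in all 12 libraries and S100a9 at no more than 15.58 CPM. Summed lymphocyte (7.394 to 211.7 and 10.82 to 96.49 CPM), endothelial (6.377 to 38.99 and 14.18 to 45.96 CPM), fibroblast and mural (9.074 to 99.23 and 13.63 to 56.11 CPM) and neural (112.3 to 616.9 and 208.3 to 389.9 CPM) markers overlapped between the groups. Ttr, a choroid plexus transcript, reached 1012 and 230.0 CPM in the high libraries of WT mice 1 and 4 and at most 40.3 CPM in the other members, and erythroid markers summed to 560.9 CPM in the tdT- library of mouse 7. The part of these transcripts in the differences was not tested.

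Whether the low libraries had responded to LPS can be asked with genes chosen from other mice. In Ccr2-/- sdCAMs, 1303 of 11941 genes were higher (10.9%) and 1266 lower (10.6%) in the 3 CTL libraries after LPS than in the 3 untreated ones by edgeR's quasi-likelihood test. Of the raised genes, 1199 passed the filter in the member libraries. In Saa3-high libraries 134 of them (11.2%) were higher, near the 9.90% over all genes. Another 24 (2.00%) were lower, under the 3.98% over all genes. The median difference of the raised genes was 0.10. On plain CPM that median was -1.00, beside -1.17 for all genes. Their behaviour differed by protein length. Of 94 raised genes for proteins of under 150 residues, 48 were higher and 0 lower (median 2.94), and of 530 genes of that length with no call in Ccr2-/- sdCAMs, 287 were higher and 1 lower (median 3.06). Of 311 raised genes for proteins of 600 residues or more, 9 were higher and 7 lower (median -0.29). Of 1063 lowered genes, 54 were higher and 68 lower (median -0.39). Conversely, of 956 genes higher in Saa3-high libraries and tested in both, 14.0% were raised and 5.65% lowered by LPS in Ccr2-/- sdCAMs, and of 390 genes that were lower, 6.15% were raised and 17.4% lowered, where 12.4% of the 9699 genes tested in both were raised and 11.0% lowered. Over 9699 genes the Pearson r of the 2 differences was 0.12. In WT MG, partly from the same mice, 1070 of 11789 genes were higher (9.08%) and 902 lower (7.65%) after LPS, and of 977 raised genes tested in the members 109 were higher and 34 lower in the Saa3-high libraries (median -0.07).

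Set against the resting sdCAMs of the same table and centred on all genes, the genes that LPS raised in Ccr2-/- sdCAMs had median log2 ratios of 1.54, 1.31, 1.44 and 1.36 in the WT high libraries and 1.34 and 1.38 in the WT low libraries (mice 8 and 11), which lay within the range of the high ones. In reporter mice the values were 1.27, 1.37 and 1.25 in tdT- and 1.05, 0.81 and 1.12 in tdT+ libraries, which lay lower without overlap, the lowest being the library with the microglial transcripts. For the genes that LPS lowered, WT high libraries had -1.74, -1.17, -1.53 and -1.32 and WT low libraries -1.07 and -1.25, and the reporter libraries -1.52, -1.66 and -1.48 against -1.27, -1.05 and -1.21. For short-protein genes all high libraries were above the resting ones (0.78 to 2.75) and all low libraries under them (-0.99 to -0.47). In WT the resting side of this ratio includes the 2 marked libraries, and by share of coding counts both WT low libraries (9.64% and 6.98%) were above the unmarked resting library (6.40%). As a share of counts without Saa3, the LPS-raised genes took 32.1% to 40% in high, 20% to 23.8% in low and 7.44% to 10.6% in resting sdCAM libraries, and 32.2% to 34.9% in Ccr2-/- sdCAMs after LPS.

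**Figure D5:**
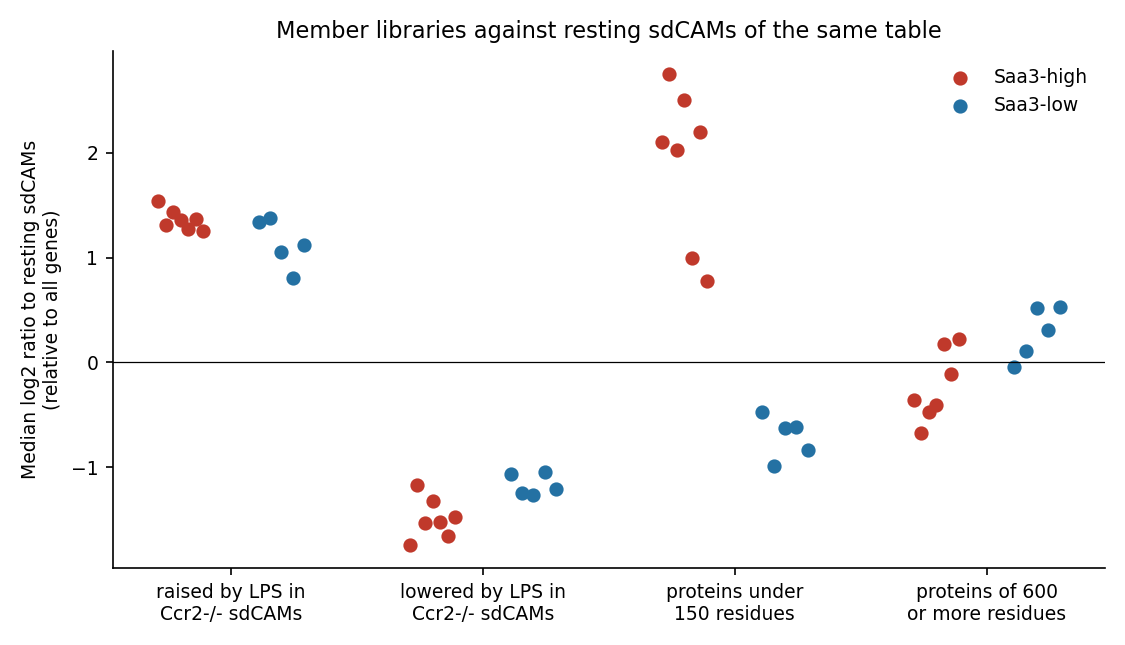
Median log2 ratio (y axis, centred on all genes) of each member library to the resting sdCAM libraries of its table, for genes that LPS raised or lowered in Ccr2-/- sdCAMs and for genes with short or long proteins. LPS-raised genes lie at 1.25 to 1.54 in high and 0.81 to 1.38 in low libraries, whereas short-protein genes lie at 0.78 to 2.75 and -0.99 to -0.47.

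Saa3 encodes a protein of 122 residues and is itself one of the short genes. On the log2(CPM + 1) scale, its high-minus-low difference was 5.39 in WT and 4.77 in reporter mice, with a mean of 5.08 beside a median of 2.73 for the 690 short-protein genes, of which 34 had a larger difference. Per 100 counts of short-protein genes, Saa3 had 109, 66, 68.8 and 50.9 counts in the WT high and 26.3 and 26.9 in the WT low libraries, and 48.1, 123 and 68 in tdT- against 30.8, 8.83 and 46.2 in tdT+ libraries. The groups still did not overlap on this measure, which includes the quantity that made them, but the nearest members, 48.1 and 46.2, were close. They are the tdT- library of mouse 1 and the tdT+ library of mouse 7, whose sex-linked transcripts differ from the MG of their named mouse. The 6 Ccr2-/- libraries after LPS had 59.6 to 68 and fell within the range of the Saa3-high libraries here, whereas by share of all counts they lay between the groups.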

How the data were processed

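The deposited tables hold raw counts (whole numbers, by gene symbol) for 54 libraries, without normalization. Per the labels and the methods, the authors amplified cDNA from sorted cells, sequenced single reads, aligned them with STAR 2.7.11a and counted them with featureCounts 2.0.8. No molecular identifiers were used, so amplification duplicates remain in the counts, and the strand setting is not given in the sources used here. For the 12 Ccr2-/- libraries after LPS the titles give the other cell type than the cell type label and the library name do. The latter were used, and the summed sdCAM markers were 24440 to 32960 CPM in those assigned to sdCAMs and 960.0 to 1651 CPM in those assigned to MG. Of the table columns, 0 were unmatched to a library. For 2 reporter columns (tdT- of mouse 1, tdT+ of mouse 7) the index number in the name was that of the other library, and the library number, mouse and population in the name decided the match.

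The members, gene lists and rules were chosen with earlier results of these data known. Saa3 was left out of counts and totals, genes averaging 5 CPM or more over the 12 members were kept, and log2 differences came from a fit in edgeR 4.0.16 (R 4.3.3) with TMM scaling and the table as a block. LPS responses were tested with edgeR's quasi-likelihood test after filterByExpr, over the 9 libraries of that cell type and genotype (Ccr2-/- sdCAMs, WT MG), two-sided, with Benjamini-Hochberg adjustment and a call where the adjusted p was under 0.05 and the log2 fold change exceeded 1 in either direction. Same-group libraries are from different mice. SE is the fold change divided by the root of the F statistic.

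Named genes were the Saa genes, up to 12 higher and 12 lower separating genes with the largest difference at 20 CPM or more on average (without predicted, pseudogene and sex-linked symbols), per list up to 4 of the highest and up to 3 separating members, and all members of the acute phase list. Of the genes that met this rule, only some are reported. Mrc1, F13a1, P2ry12, Tmem119, Ly6c2, Ly6g, S100a9, Folr2, Lyve1, Stab1, Sall1, Ldha and the ribosomal RNA rows were added after their values were seen. Protein lengths, planned from RefSeq, were taken from the coding sequences of the GENCODE annotation (principal isoform), matched by symbol. The relation to like protein length, Saa3 per short-protein count and the comparison of marked with unmarked resting libraries were chosen after seeing the data. Levels are TMM-scaled CPM for members and plain CPM elsewhere, unless stated. The scripts were tested on simulated data. Alternatives used DESeq2 1.42.0. The mitochondrially encoded list had no gene in the tables.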

Additional observations from a re-analysis of the deposited data

How the results depend on the processing

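The high-against-low contrast has no test, and the count of separating genes (1360, 970 higher and 390 lower) moved most with the scaling and the libraries. It was 3333 on plain CPM and 3846 without libraries of under 3000000 counts, which left 6 high and 1 low library, the tdT+ library of mouse 5 with microglia markers at 81.3% of its MG, and no WT low library, so that all values without shallow libraries rest on it. It was 2769 in the WT table alone, 2135 in the reporter table alone and 2963 there with the mouse as a replicate block, which pairs 2 libraries per mouse by names that sex-linked transcripts contradict for 2 of them. Without each library in turn it ranged from 1414 to 1632 (fewer libraries overlap less often), and without those 2 libraries it was 1732 (added after seeing the data). Relative to genes of like protein length it was 975. The median of the genes that LPS raised in Ccr2-/- sdCAMs (0.10) was -1.00 on plain CPM and 0.57 without the shallow libraries. For short proteins (3.02) the median was 1.89 on plain CPM, 2.07 with no filter, 2.39 without the shallow libraries, 3.58 in the WT table, 2.39 in the reporter table, 2.08 with the replicate block, 2.50 without the gene classes that the study removed and 0.57 relative to like length, an alternative built to take this difference out. For middle lengths (-0.02) it was -1.12 on plain CPM and 0.05 in the WT table, and for long proteins (-0.39) -1.49 on plain CPM, -0.05 without the shallow libraries and -0.02 relative to like length. Cxcl13 was -0.02 relative to like length, against 2.43. A single limit at 7.5% changes no group and gave no separate value. LPS calls in Ccr2-/- sdCAMs ranged from 2213 to 3006 over the alternatives (2569 in the fit reported) and in WT MG (1972) from 1512, with CTL mouse 1 left out, to 2577, with CTL mouse 4 left out. No cause was tested for these shifts.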
